A study of Homo sapiens with 6 samples.

Results

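The genes for making, cutting and binding hyaluronan were described in 6 RNA-seq libraries of MRC5, human embryonic lung fibroblasts immortalized with hTERT. The members are HAS1, HAS2, HAS3, CEMIP, HYAL1, HYAL2, CD44, TNFAIP6, VCAN and HAPLN1, and all 10 were found by symbol among the 25368 different symbols of each of the 2 FPKM tables. They were selected by function, with earlier results of these data known, so no member was chosen blind to its values. CEMIP was moreover picked directly from its values, because it was low in both JUN libraries. For CEMIP the JUN table is therefore only a description, while its values with conditioned medium and JNKi were not used to choose it. In the first table the cells had been infected with adenovirus that carried an empty vector (control), FLAG-tagged JUN wild-type (JUN WT) or a mutant with serines 63 and 73 changed to alanine so that JNK cannot phosphorylate them (JUN AA), and were cultured for 3 days. All 3 of these libraries share the exposure to adenovirus. In the second table, uninfected MRC5 cells were untreated, cultured for 7 days in conditioned medium of the breast cancer cell line MDA-MB-231 to give induced CAFs (iCAFs), or made into iCAFs and treated with JNK-IN-8 (JNKi) at 1 µM for 48 h. The conditioned medium came from cultures without serum, MRC5 were otherwise maintained in medium with serum, and which medium the MRC5 library had over those days is not given in the sources used here, so effects of tumour factors and of serum cannot be told apart. The labels do not say whether the iCAFs library had received vehicle.

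Hyaluronan is a long unsulfated glycosaminoglycan that is spun out through the plasma membrane by the hyaluronan synthases and turned over quickly. CEMIP starts its breakdown outside the cell and HYAL2 at the cell surface, HYAL1 continues it in lysosomes, and CD44 is the main receptor that holds and takes up the polymer. Versican (VCAN), the link protein HAPLN1 and TSG-6 (TNFAIP6), which hands heavy chains of inter-alpha-trypsin inhibitor to hyaluronan, organise it into a pericellular matrix. In fibroblasts this matrix is known to grow in inflammation and in tumour stroma.

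With 1 library per condition there was no replicate against which to judge a difference, and no p-value could be given. Values are FPKM, fragment numbers relative to transcript length and library size, and differences are on the log2(FPKM + 1) scale, which understates changes of genes with low values. A gene passed the filter with a mean of at least 1 FPKM over the 3 libraries of its table, and it was called when the difference reached 1 on the log2 scale, that is 2-fold. The numbers of reads are unknown. FPKM summed to between 494603 and 613184 in the JUN table, with the highest sum in JUN AA, and to between 359944 and 399532 in the other. JUN itself was at 25.5 FPKM with the empty vector, 4543 with JUN WT and 291 with JUN AA. Between JUN WT and JUN AA, effects of the mutation and of the level of JUN therefore cannot be told apart. In the second table JUN was at 57.1 FPKM in untreated MRC5, 55.3 in iCAFs and 21.1 after JNKi. The 6 fibroblast markers COL1A1, COL1A2, COL3A1, PDGFRB, THY1 and VIM were all above 1 FPKM in every library and summed to between 3864.4 and 5947.4 FPKM, but they did not move together. From control to JUN WT all but VIM were lower. COL1A1 went from 2388.1 to 1014.3 FPKM, PDGFRB from 60.4 to 13.8 FPKM and THY1 from 347 to 320 FPKM. VIM went from 1480.2 to 2927.2 FPKM. From iCAFs to iCAFs+JNKi all but VIM were higher. COL1A1 went from 1093.7 to 2305 FPKM, COL3A1 from 46.4 to 296 FPKM, PDGFRB from 23.1 to 74.8 FPKM and THY1 from 156 to 188 FPKM. VIM went from 1654.9 to 1209 FPKM. Of 5 epithelial markers CDH1 was listed at 0 in all libraries and EPCAM was at most 0.243 FPKM, while KRT8 and KRT18 brought the sum to 56.2 FPKM with the empty vector, 21.5 with JUN WT, 19.7 with JUN AA and 32.8 to 39.6 FPKM in the second table. Of 4 leukocyte markers CD3E was listed at 0 and PTPRC was at most 0.0148 FPKM, while CD68 was at 85.7 FPKM in JUN WT and 31.1 to 48.6 FPKM elsewhere. LYZ was at 2.03 FPKM in JUN AA and at most 0.0233 FPKM in any other library. The 3 endothelial markers summed to at most 0.31 FPKM. The part of these markers in the results below was not tested.

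Of the synthases, HAS2 was the one with appreciable mRNA. Its share of the summed FPKM of the 3 synthases was 92.1% in untreated MRC5, 97.9% in iCAFs and 95.1% after JNKi. In the JUN table it was 30.1% with the empty vector, 82.5% with JUN WT and 68.2% with JUN AA. The summed FPKM there were only 0.269, 3.27 and 0.622 in the same order. With the empty vector HAS2, at 0.0811 FPKM, was below HAS1, at 0.122 FPKM. HAS1 lay between 0.0935 and 0.208 FPKM and HAS3 between 0.0489 and 0.365 FPKM over the 6 libraries, so neither passed the filter in either table. CD44 was the most abundant member in every library, from 63.1 to 541 FPKM. HYAL2 followed in the JUN table, at 49.0 to 54.5 FPKM. HAPLN1 was at most 0.406 FPKM and was listed at 0 in MRC5. HYAL1 also stayed under the filter. Thus 6 of the 10 members passed in each table, namely HAS2, CEMIP, HYAL2, CD44, TNFAIP6 and VCAN. Of these, HAS2 passed in the JUN table only through its JUN WT value, and TNFAIP6 passed in the second table only through its iCAFs+JNKi value.

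**Figure D1:**
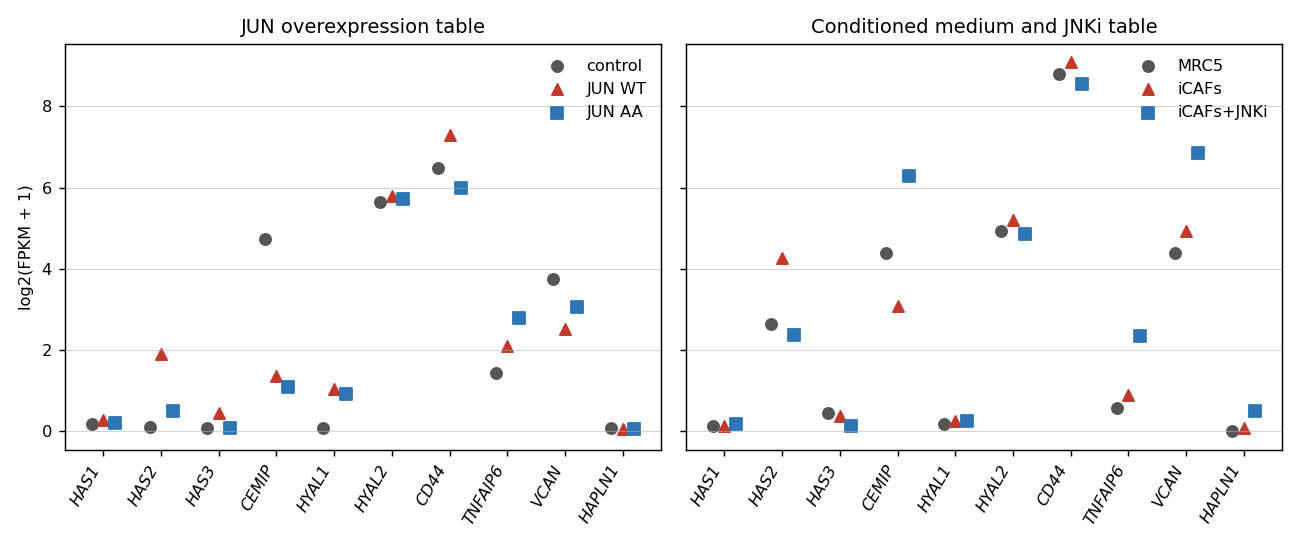
Level of the 10 hyaluronan genes as log2(FPKM + 1), 1 point per library, with the JUN overexpression table on the left and the conditioned medium and JNKi table on the right. CEMIP was at 25.6 FPKM in the control and under 2 FPKM in both JUN libraries, while in the other table it was lowest in iCAFs and highest in iCAFs+JNKi, the reverse of HAS2.

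The promoters of CEMIP, VCAN and TNFAIP6 are shown because these 3 members were called higher with JNKi, an inhibitor of the kinases that phosphorylate JUN, a subunit of the factor AP-1. Promoters were taken from RefSeq (GRCh38.p14, 250 bases before to 50 after the start of the gene) and matched 9 of the 10 members, all but HAS2. They are written 5′ to 3′ on the strand of the gene, and capitals mark the AP-1 heptamer, TGACTCA or TGAGTCA, searched on both strands, of which each is the reverse complement of the other. The CEMIP promoter (chr15:80779120-80779419, plus strand) and the VCAN promoter (chr5:83471494-83471793, plus strand) hold no copy, and the TNFAIP6 promoter (chr2:151357342-151357641, plus strand) holds 1, at position -129 from the start.
CEMIP: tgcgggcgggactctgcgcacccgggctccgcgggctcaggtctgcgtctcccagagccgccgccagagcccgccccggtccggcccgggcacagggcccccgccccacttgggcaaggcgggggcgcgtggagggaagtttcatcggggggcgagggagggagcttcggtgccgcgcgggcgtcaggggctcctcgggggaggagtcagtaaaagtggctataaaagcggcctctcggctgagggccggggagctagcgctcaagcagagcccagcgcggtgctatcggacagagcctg
VCAN: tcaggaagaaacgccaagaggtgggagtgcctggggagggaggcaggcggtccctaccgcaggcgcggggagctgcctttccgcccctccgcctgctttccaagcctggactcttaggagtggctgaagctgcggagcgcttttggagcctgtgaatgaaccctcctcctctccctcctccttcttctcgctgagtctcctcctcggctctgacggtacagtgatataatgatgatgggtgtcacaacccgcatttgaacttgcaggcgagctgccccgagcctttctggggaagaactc
TNFAIP6: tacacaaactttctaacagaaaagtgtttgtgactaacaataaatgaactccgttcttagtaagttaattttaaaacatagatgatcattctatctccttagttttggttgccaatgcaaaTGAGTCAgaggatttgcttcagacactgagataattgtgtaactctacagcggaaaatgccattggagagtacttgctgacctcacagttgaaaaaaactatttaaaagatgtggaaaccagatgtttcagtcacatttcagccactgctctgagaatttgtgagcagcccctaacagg

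Of all 35116 promoters of the same length, 4.95% held the heptamer, and TNFAIP6 was the only one of the 9 matched members with it. HAS1 held the related sequence TGACGTCA, found in 1.85% of promoters. On GRCh37, the build the authors mapped to (hg19), a window of 2000 bases on each side of the start of the canonical transcript held the heptamer in 40.1% of 17762 protein-coding genes. Of the members, CEMIP, TNFAIP6 and HAS1 held 1 copy each, which describes the letters there and says nothing of binding. That of CEMIP is at position -1103 from that start, which is base 81071711 and lies inside the outer bounds of the gene, in the 67 bases at chr15:81070578-81070644 of GRCh37 on the plus strand, shown with the heptamer in capitals.
CEMIP upstream copy: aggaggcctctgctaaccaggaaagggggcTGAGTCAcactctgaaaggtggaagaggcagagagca

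CEMIP, the extracellular hyaluronan depolymerase (chr15:81071684-81244117 on GRCh37, plus strand), was at 25.6 FPKM with the empty vector, 1.57 with JUN WT and 1.13 with JUN AA. Both JUN libraries were low, with log2 differences of -3.37 and -3.64 against the control, which are the values it was picked on. Among the 10311 genes that passed the filter, 0 had a larger fall in JUN WT and 8 had a larger fall in JUN AA. JUN WT and JUN AA themselves lay 0.27 apart, a difference that became -0.06 once trends with transcript length and GC content were removed.

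In the table not used for that choice, CEMIP was at 19.8 FPKM in untreated MRC5, 7.47 in iCAFs and 76.6 after JNKi. It was thus low after conditioned medium and high after JNKi. The log2 difference was -1.30 in iCAFs against MRC5, where 95 of the 11780 genes that passed had a larger fall. In iCAFs+JNKi against iCAFs it was 3.20, a 10.3-fold higher FPKM, and only 4 of the 11780 genes had a larger rise. The JNKi library was also above untreated MRC5, with a log2 difference of 1.90. On the annotation used, 2.94% of the exon bases of CEMIP overlap MESD on the opposite strand and 0.93% a non-coding gene, and whether strand was used in counting is not given in the sources used here.

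HAS2, the main fibroblast synthase (chr8:122624356-122653680 on GRCh37, minus strand), was at 0.0811 FPKM with the empty vector, 2.70 with JUN WT and 0.424 with JUN AA. JUN WT was the only one of these libraries above 1 FPKM. The log2 difference was 1.77 in JUN WT against control, 0.40 in JUN AA against control and 1.38 in JUN WT against JUN AA. As the control value is under 0.1 FPKM, the size of a difference depends on the pseudocount, and with a pseudocount of 0.1 these differences were 3.95, 1.53 and 2.42. With length and GC trends removed they were 1.42, 0.09 and 1.32 in the same order. In the second table HAS2 was at 5.27 FPKM in untreated MRC5, 18.2 in iCAFs and 4.17 after JNKi. It was highest in iCAFs, 1.62 above MRC5, and 109 of 11780 genes had a larger rise. With JNKi it was lower by 1.90 on the log2 scale (a difference of -1.90), and 41 genes had a larger fall. The level with JNKi was close to that of MRC5, with a difference of -0.28. The antisense gene HAS2-AS1 shares 251 exon bases with HAS2, which are 5.92% of the exon bases of HAS2. It was at 0.0392 FPKM with the empty vector, 0.383 with JUN WT and 0.352 with JUN AA, and between 0.318 and 0.416 FPKM in the second table. Without strand, reads from the shared bases cannot be told apart.

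The ratio of HAS2 to CEMIP within a library is free of the scaling between libraries. FPKM are per length, but effects of GC content are not removed, and the canonical transcripts differ in it, at 37.17% for HAS2 and 53.13% for CEMIP. The ratio is therefore only a rough ratio of levels. In the control CEMIP was 316 times as high as HAS2, a figure that rests on the very low HAS2 value there. In JUN WT the order was turned, with HAS2 at 1.72 times CEMIP, which rests on 2.7 against 1.57 FPKM in 1 library. In JUN AA CEMIP was 2.67 times as high as HAS2. In the experiment with conditioned medium CEMIP was 3.76 times as high as HAS2 in MRC5, HAS2 was 2.44 times as high as CEMIP in iCAFs, and CEMIP was 18.4 times as high as HAS2 with JNKi. HAS2 therefore exceeded CEMIP in JUN WT and iCAFs and in no other library. Since CEMIP was picked on the JUN libraries, the ratios of that table partly follow from the choice.

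**Figure D2:**
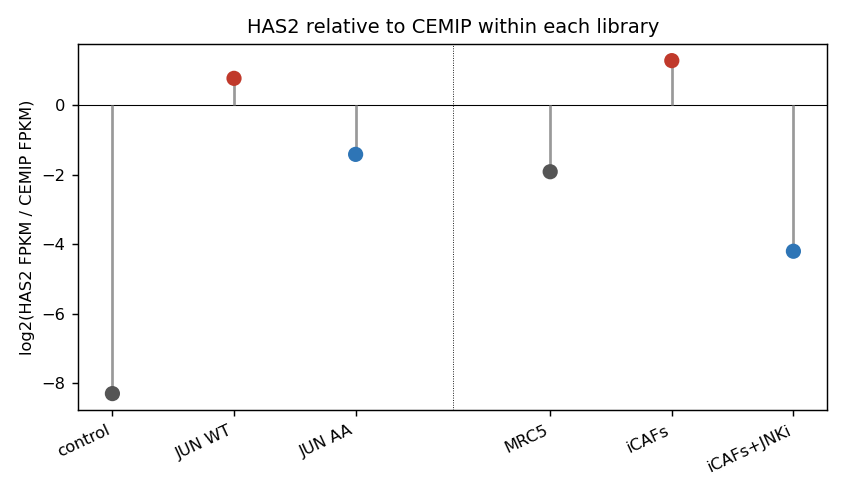
The log2 ratio of HAS2 FPKM to CEMIP FPKM in each of the 6 libraries, with the dotted line between the 2 tables. It lies above 0 in JUN WT, at 0.78, and in iCAFs, at 1.29, and below 0 in the other 4 libraries, from -8.30 in the control to -1.41 in JUN AA.

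VCAN, the large hyaluronan-binding chondroitin sulfate proteoglycan (chr5:82767437-82878122 on GRCh37, plus strand), was at 12.4 FPKM with the empty vector, 4.70 with JUN WT and 7.35 with JUN AA. Both JUN libraries were lower, by log2 differences of -1.24 and -0.68, and only JUN WT was past 2-fold. In JUN AA the difference reached -1.01 with FPKM rescaled to the same sum. Among the uninfected libraries VCAN was at 19.9 FPKM in untreated MRC5, 29.5 in iCAFs and 114 after JNKi. It was somewhat higher in iCAFs, by 0.54, and higher again with JNKi, by 1.91, where 56 of 11780 genes had a larger rise. Against untreated MRC5 the difference with JNKi was 2.45. Values are per gene, so the splice forms of VCAN, which differ in the number of chondroitin sulfate chains, cannot be told apart.

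TNFAIP6, which encodes TSG-6 (chr2:152214106-152236560 on GRCh37, plus strand), was at 1.70 FPKM with the empty vector, 3.29 with JUN WT and 5.92 with JUN AA. The highest of these was the phosphosite mutant, with a log2 difference of 1.35 against control, while JUN WT differed by 0.66 and stayed under 2-fold. The call in JUN AA was lost with trends with transcript length and GC content removed, where the difference was 0.77. With conditioned medium and JNKi TNFAIP6 was at 0.477 FPKM in untreated MRC5, 0.865 in iCAFs and 4.09 after JNKi. JNKi thus gave the highest level there, 1.45 above iCAFs on the log2 scale. It was the only member called higher in JUN AA, and the only one of the 6 that was higher both in JUN WT against control and in iCAFs+JNKi against iCAFs.

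CD44, the hyaluronan receptor (chr11:35160429-35253949 on GRCh37, plus strand), was at 88.8 FPKM with the empty vector, 157 with JUN WT and 63.1 with JUN AA. It was highest in JUN WT, which was 0.81 above the control and 1.30 above JUN AA, while JUN AA was 0.49 below the control (a difference of -0.49). With length and GC trends removed, JUN WT was 0.36 above the control and 0.88 above JUN AA. In the second table CD44 was at 443 FPKM in untreated MRC5, 541 in iCAFs and 375 after JNKi, so the order was again highest in iCAFs and lowest with JNKi, with differences of 0.29 and -0.53 that did not reach 2-fold. HYAL2, the surface hyaluronidase, varied little. It was at 49.0, 54.5 and 51.2 FPKM in control, JUN WT and JUN AA, and at 29.4, 35.5 and 28.1 FPKM in MRC5, iCAFs and iCAFs+JNKi. The sign of its small difference in JUN AA against control depended on scaling, with 0.06 as deposited and -0.24 rescaled, and that in JUN WT against JUN AA was 0.09 as deposited and -0.10 centred on the median gene. HYAL2 shares 11.51% of its exon bases with TUSC2, which lies on the same strand. CEMIP was 0.522 times as high as HYAL2 in the control, 0.0288 times in JUN WT and 2.73 times in iCAFs+JNKi.

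HYAL1, the lysosomal hyaluronidase, was at 0.0482 FPKM with the empty vector, 1.07 with JUN WT and 0.875 with JUN AA. Both JUN libraries were above the control, but their mean did not pass, and values this low carry no fold change where depth is unknown. Without adenovirus HYAL1 was between 0.127 and 0.193 FPKM. HAPLN1 was at 0.0677 FPKM in iCAFs and 0.406 after JNKi, which are both too low for a fold change.

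**Figure D3:**
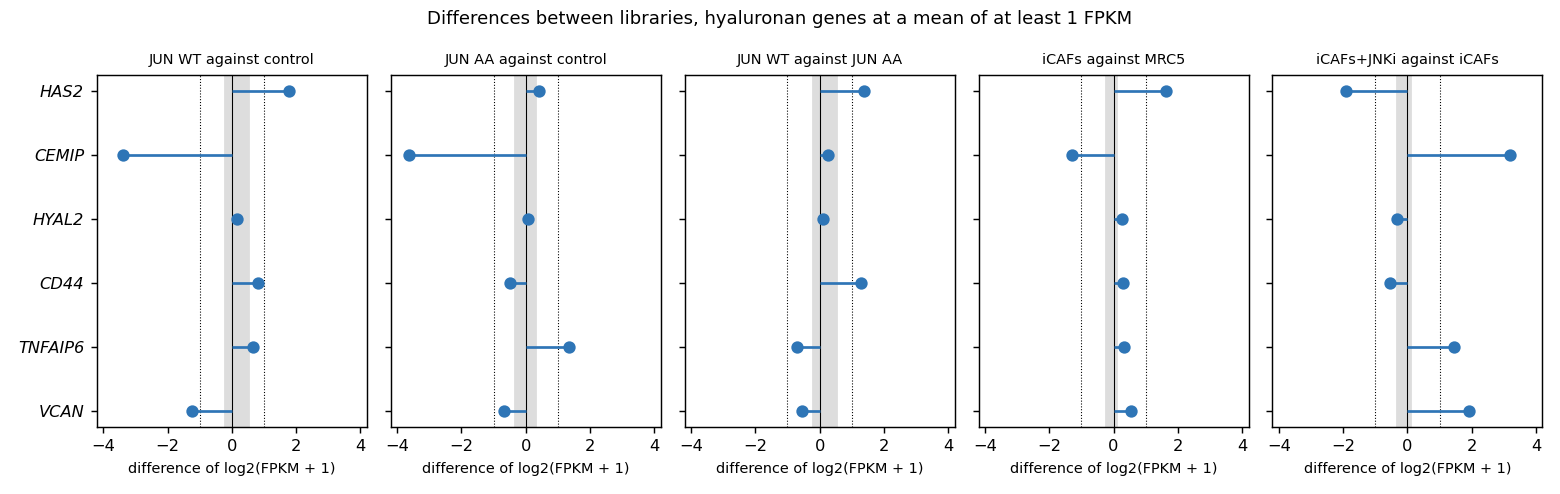
Difference of log2(FPKM + 1) for the 6 members that passed the filter, 1 panel per comparison, with 1 library on each side. The grey band spans the lower to the upper quartile of all genes that passed and the dotted lines mark 2-fold. CEMIP lies at -3.37 and -3.64 in the JUN libraries, at -1.30 in iCAFs and at 3.20 with JNKi, and HYAL2 lies between -0.33 and 0.27.

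Counted over the 6 members that passed, 1 (HAS2) was called higher in JUN WT against control, where 6.92% of all genes were called higher, and 2 (CEMIP and VCAN) were called lower, against 3.39% of all genes. In JUN AA against control 1 member (TNFAIP6) was called higher, against 5.29% of all genes, and 1 (CEMIP) lower, against 3.77%. In JUN WT against JUN AA 2 members (HAS2 and CD44) were called higher, against 6.65%, and 0 lower, against 5.61%. In iCAFs against MRC5, HAS2 was called higher, against 1.94% of all genes, and CEMIP lower, against 1.71%. With JNKi 3 members (CEMIP, VCAN and TNFAIP6) were called higher than in iCAFs, against 2.25% of all genes, and 1 (HAS2) lower, against 1.97%. Nothing is read from the counts that contain CEMIP in the JUN table. The same holds for the counts with HAS2 in the JUN table and for that with TNFAIP6 with JNKi. Both genes passed the filter there only through the library in which they were called higher. The median difference of the 6 was 0.41 for JUN WT and -0.21 for JUN AA against control, 0.18 between JUN WT and JUN AA, 0.31 in iCAFs and 0.56 with JNKi, with HAS2 and TNFAIP6 having passed through their high library. Over all genes the median difference from control was 0.15 for JUN WT and -0.02 for JUN AA, 0.18 between JUN WT and JUN AA, -0.06 in iCAFs and -0.10 with JNKi. Rescaling FPKM to the same sum moved the median to -0.29 in JUN AA, 0.47 in JUN WT against JUN AA and 0.01 with JNKi. The share of higher genes among all those called then changed from 58.4% to 26.1% in JUN AA and from 54.3% to 82.9% in JUN WT against JUN AA. Centring on the median gene turned the latter the other way, to 33.3%, and took the share from 67.1% to 45.5% in JUN WT against control and from 53.3% to 64.0% with JNKi.

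JUN WT against control and iCAFs+JNKi against iCAFs share no library, so their values for the members can be set side by side. VCAN was called lower with JUN WT and higher with JNKi, at -1.24 and 1.91, a pattern that 62 of the 10020 genes that passed in both tables showed (0.619%). CEMIP had the same pattern, but its fall with JUN WT is what it was picked on. HAS2 was called higher with JUN WT and lower with JNKi, but it passed the filter of the JUN table through its JUN WT value. CD44 and HYAL2 were higher with JUN WT and lower with JNKi without being called in either. Opposite signs in the 2 comparisons were common, at 61.3% of the 10020 genes. The difference of HYAL2 with JUN WT, 0.15, was no more than the median of 0.15 over all genes. The number of members with opposite signs is not read against that share, since the signs of CEMIP and HAS2 with JUN WT follow from how they were picked or passed.

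**Figure D4:**
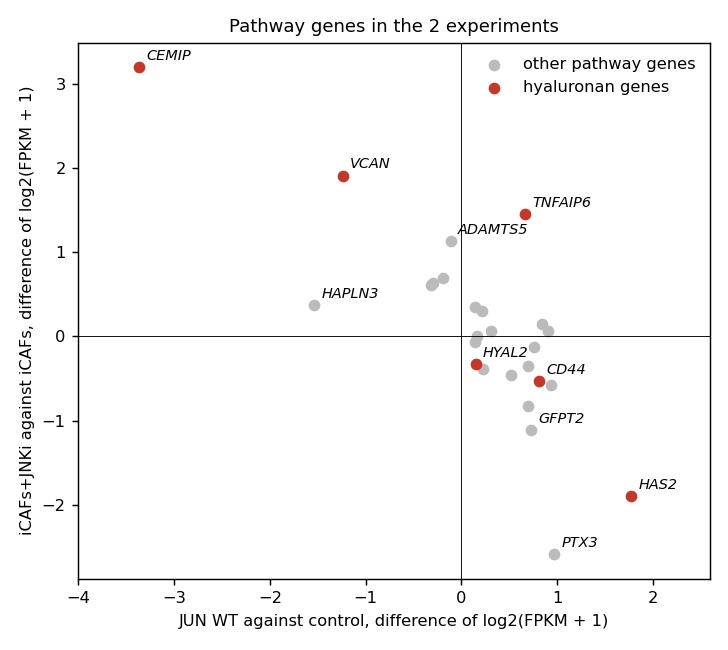
Difference of log2(FPKM + 1) in JUN WT against control on the horizontal axis and in iCAFs+JNKi against iCAFs on the vertical axis, 1 point per member or other pathway gene that passed the filter in both tables, with the members in red and other genes of the pathway in grey. CEMIP and VCAN lie at the upper left, HAS2 at the lower right and TNFAIP6 at the upper right, at 0.66 and 1.45.

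Among the other genes of the pathway, the 10 enzymes that supply the sugar nucleotides passed the filter in both tables. In JUN WT against control 9 of the 10 were higher and 1 was lower, with a median difference of 0.69 beside 0.15 over all genes, or 0.42 with 8 higher once length and GC trends were removed. None of the 10 was called on the log2(FPKM + 1) scale, although the plain FPKM ratio was 2.05 for UGDH, 2.03 for UAP1 and 2.16 for GFPT2. UGDH, which makes UDP-glucuronic acid, was at 4.62 FPKM in the control and 9.47 FPKM in JUN WT. UAP1, which completes UDP-N-acetylglucosamine, was at 6.91 FPKM with the empty vector, 14.0 with JUN WT and 17.2 with JUN AA, and UGP2, which makes UDP-glucose, at 14.4, 21.1 and 38.3 FPKM in the same order. UGP2 and UAP1 were called higher in JUN AA, by 1.36 and 1.20, and UAP1 was at 0.95 once the libraries were rescaled to equal sums and 0.96 with trends removed. The median of the 10 in JUN AA was 0.27 with 9 higher, and rescaling brought it to 0.03 with 5 higher. Between JUN WT and JUN AA the median was 0.16 with 0 of the 10 called, and it depended on scaling, with -0.03 when centred on the median gene and 0.44 with 9 higher when rescaled. GFPT2, a form of the first enzyme of hexosamine synthesis, was at 1.31 FPKM with the empty vector, 2.83 with JUN WT and 1.52 with JUN AA. In the second table it was at 8.32 FPKM in iCAFs, 4.15 times the level of untreated MRC5, and at 3.32 FPKM after JNKi, with differences of 1.63 and -1.11. With length and GC trends removed the difference with JNKi was -0.96. Like HAS2 it was highest in JUN WT and in iCAFs, but so were the precursor enzymes GNPNAT1 and GPI, with smaller differences that were not called. GFPT2 was the only precursor enzyme called in either comparison of the second table. The median of the 10 was 0.10 in iCAFs and -0.37 with JNKi, beside -0.06 and -0.10 over all genes.

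Of 7 other hyaluronidases and lysosomal glycosidases, 4 passed in the JUN table and 5 in the other. HEXA, a lysosomal glycosidase, was at 66.0 FPKM with the empty vector and 29.4 with JUN AA, and JUN WT was 0.14 above the empty vector. It was called lower in JUN AA than in both, with -1.14 against control and 1.28 for JUN WT against JUN AA, and neither call held with trends removed, at -0.90 and 0.71. TMEM2, the older symbol of CEMIP2, which encodes a membrane protein related to CEMIP, did not follow CEMIP. It was under the filter in the JUN table, at 0.828 FPKM with the empty vector, 1.40 with JUN WT and 0.551 with JUN AA, and it was at 12.2 FPKM in untreated MRC5, 18.0 in iCAFs and 20.3 after JNKi. HYAL3, the neighbour of HYAL1 and HYAL2 on chromosome 3, lay between 2.46 and 5.87 FPKM over all libraries.

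Of 13 other receptors and binding proteins, 3 passed in the JUN table and 4 in the other. HAPLN3, a link protein, was at 12.2 FPKM with the empty vector, 3.55 with JUN WT and 4.38 with JUN AA, and was called lower in both JUN libraries, by -1.54 and -1.30. It did not reach 2-fold in the second table, where it was at 3.61 FPKM in untreated MRC5, 4.96 in iCAFs and 6.68 after JNKi. Of the 7 genes for inter-alpha-trypsin inhibitor and its matrix partners only PTX3 passed. PTX3, which joins heavy chains in the hyaluronan matrix, was at 13.2 FPKM with the empty vector, 26.8 with JUN WT and 12.2 with JUN AA. In the uninfected cells it was at 111 FPKM in untreated MRC5, 62.5 in iCAFs and 9.56 after JNKi. PTX3 was thus lowest with JNKi, with a difference of -2.59 against iCAFs where 15 genes had a larger fall, while its partner TNFAIP6 was highest there. PTX3 in JUN WT was 1.08 above JUN AA, or 0.89 when centred and 0.65 with trends removed. Of 6 proteases that cleave versican, 3 passed in each table. ADAMTS15 was at 4.03 FPKM with the empty vector, 0.473 with JUN WT and 2.07 with JUN AA, and was called lower in JUN WT against both. ADAMTS5 was at 2.73 FPKM in iCAFs and 7.18 after JNKi, and was called higher with JNKi.

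Over the 44 other genes of the pathway, 21 passed in the JUN table and 23 in the other. Their median difference was 0.22 for JUN WT, -0.11 for JUN AA and 0.30 in JUN WT against JUN AA. Over all genes it was 0.15, -0.02 and 0.18 in the same order. Called higher were 0, 2 and 2, against 6.92%, 5.29% and 6.65% of all genes. Called lower were 2, 2 and 1, against 3.39%, 3.77% and 5.61%. In iCAFs the median was 0.11, beside -0.06 over all genes, with 1 called higher and 1 lower, against 1.94% and 1.71%. With JNKi the median was 0.01, beside -0.10 over all genes, with 1 higher and 2 lower, against 2.25% and 1.97%.

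Genes with a pattern like that of CEMIP were sought as the smallest Euclidean distance over 4 log2 differences, namely JUN WT and JUN AA against control and iCAFs and iCAFs+JNKi against MRC5, among 10020 genes. The nearest were MMP11, a matrix metalloproteinase, at a distance of 2.06, PODN, a small leucine-rich proteoglycan, at 2.14, PDGFRB, a receptor for platelet-derived growth factor, at 2.50, LBH, a transcription cofactor, at 2.62, and FMOD, fibromodulin, at 2.71. The median distance over all these genes was 5.66. It is no yardstick for likeness, since the distance includes the JUN differences on which CEMIP was picked. A gene with little change in the JUN libraries is far from CEMIP by that choice. PODN was at 10.9 FPKM with the empty vector, 2.92 with JUN WT and 1.20 with JUN AA, and at 7.26 FPKM in untreated MRC5, 2.12 in iCAFs and 28.8 after JNKi. PDGFRB was at 60.4, 13.8 and 15.8 FPKM and at 27.4, 23.1 and 74.8 FPKM in the same orders. The differences of these 5 from the control were between -1.52 and -3.06 in JUN WT and between -1.87 and -2.44 in JUN AA. In iCAFs against MRC5 PODN was at -1.4, near CEMIP at -1.3, while LBH was at -0.67, PDGFRB at -0.24 and MMP11 at -0.19. FMOD was not low in iCAFs, at 3.78 FPKM against 2.49 FPKM in MRC5.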

How the data were processed

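RNA-seq was deposited for 6 libraries of MRC5 cells, 1 per condition, in 2 tables of 25370 rows. The authors mapped reads to hg19 with HISAT2 2.1.0 and made the deposited FPKM per gene with StringTie 2.1.1. The annotation, strand setting and read numbers are not given in the sources used here, so neither depth nor the precision of a value can be stated. FPKM depend on how reads of overlapping genes were divided.

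Python 3.11.15, with pandas 2.3.3 and numpy 2.4.6, was used to take differences of log2(FPKM + 1) within each table for 5 comparisons. Of rows with the same symbol, the one with the highest mean was kept. Counting was checked on simulated data. No test was possible without replicates. The members and lists were chosen with earlier results of these data known. Named are all members, listed pathway genes past 2-fold (at most 4 a list and comparison), others given where they answer a member's values, and the 5 genes nearest to CEMIP. UGDH, GNPNAT1, GPI, TMEM2 and HYAL3 were named after their values were seen. Of the listed genes past 2-fold, 1 is not reported here. Positions and exons come from GRCh37 with GENCODE v44lift37. Alternatives were rescaling each library to 1000000, a pseudocount of 0.1, centring, no filter and a filter of 5 FPKM. Removal of length and GC trends (medians of 20 bins) was chosen after seeing the data. Figures were drawn with matplotlib 3.10.9.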

Additional observations from a re-analysis of the deposited data

How the results depend on the processing

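With 1 library per condition, a value was taken to have moved beyond 0.25 on the log2 scale, or 1.5 times for a count. Of 180 single values of members under other settings, 137 stayed within this limit, 43 moved and 0 of those past 2-fold changed sign. Centring on the median gene moved 0 of 50, an outcome that was fixed in advance. It subtracts the all-gene median, which lay between -0.1 and 0.18, within the limit of 0.25. These 50 values are among the 137 and say nothing of how firm the results are. A pseudocount of 0.1 moved 17 of 50, and rescaling to the same sum moved 16 of 50. Removing length and GC trends, a setting added after the data were seen, moved 10 of 30.

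Counts of members called lower with JUN WT, and called in either direction in iCAFs and with JNKi, stayed within 1.5 times under every setting. The members called higher in JUN WT against control became 0 with a filter of 5 FPKM, as HAS2 has a lower mean. In JUN AA against control the members called higher became 2 with a pseudocount of 0.1, 0 with a filter of 5 FPKM and 0 with trends removed, and those called lower became 2 with rescaled FPKM. In JUN WT against JUN AA the members called higher became 1 with a filter of 5 FPKM and 1 with trends removed. The median of the other pathway genes became 0.60 in JUN WT with a filter of 5 FPKM and -0.41 in JUN AA with rescaled FPKM. In JUN WT against JUN AA it became 0.59 with rescaled FPKM, 0.02 without a filter and -0.06 with trends removed. Apart from the filter of 5 FPKM, the cause was not tested. Depth is unknown, so differences of members under 1 FPKM cannot be judged.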
